A study of Mus musculus with 4 samples.

Results

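The guanylate-binding proteins (Gbp) and the immunity-related GTPases (Irg) are 2 families of interferon-inducible GTPases, and 10 of their genes were taken by name from the 53465 genes in the count files. The Gbp members were Gbp2, Gbp3, Gbp5, Gbp6 and Gbp7, and the Irg members were Igtp, Irgm1, Irgm2, Iigp1 and Tgtp1. All 10 were found under these symbols in each library. The libraries were made from primary mouse oligodendroglial cells (1° OGCs) after 3 days of differentiation (3ddiff), with 2 libraries from ctrl cells and 2 from Zfp276cko cells. Ctrl cells carried Zfp276 flox/flox alleles without Cre. Zfp276cko cells carried the Sox10::Cre transgene together with Zfp276 flox/flox, so that both genotypes shared the floxed alleles and only Zfp276cko cells had Cre. A Rosa26 stopflox tdTomato reporter allele had also been crossed into the mice used for culture, to recognise newborn Zfp276cko pups. Cre was driven by Sox10 regulatory sequences, which are active in OGCs from the precursor (OPC) stage onwards. The mice were pups between postnatal days 2 and 4 of mixed background (C3H crossed with C57Bl/6J), each preparation pooled the forebrains of 3 mice, and the OGCs were shaken off mixed glial cultures and depleted of microglia. The comparison asks how expression in OGCs changes when Zfp276, a zinc finger protein, is deleted in the oligodendroglial lineage.

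Interferons bind receptors at the cell surface, Jak kinases are activated, and factors of the Stat and Irf families then bind interferon-stimulated response elements (ISRE) and gamma-activated sequences (GAS) in the promoters of target genes. Gbp and Irg genes are among the targets most responsive to interferon-gamma, and many also respond to type I interferon. Their products are cell-autonomous defence proteins: Gbp proteins assemble on bacteria and on damaged vacuoles and promote caspase-11 signalling, and Irg proteins attack the membrane of vacuoles that contain parasites or bacteria. Mice have many genes of both kinds in clusters. In the resting brain both families are expressed at a low level, and microglia, astrocytes and oligodendroglia can all express them after exposure to interferon.

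The Irg members fall into 2 classes that can be read from the first nucleotide-binding motif of the GTPase domain. Effector proteins such as Iigp1 and Tgtp1 have a lysine in this motif, as Gbp proteins do, and load onto vacuoles. Igtp, Irgm1 and Irgm2 have a methionine there, sit on the cell's own membranes and keep the effectors inactive. The 24 bases that code for the motif are shown because they separate the regulators from the other members, with the codon of the lysine or methionine in capitals. They were read from the GENCODE M21 transcripts.
Igtp: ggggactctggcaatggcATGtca
Irgm1: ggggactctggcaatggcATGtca
Irgm2: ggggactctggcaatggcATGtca
Tgtp1: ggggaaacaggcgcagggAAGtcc
Gbp2: ggcctctaccgcacaggcAAAtcc
Gbp3: ggtttatatcgtacagggAAGtcc
Gbp5: ggtctttatcgcacaggcAAAtcc
Gbp6: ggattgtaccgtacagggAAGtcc
Gbp7: ggactataccgtacgggaAAAtcc
The 3 regulators were identical over these 24 bases. Tgtp1 matched them at 15 of 24 positions, and the 5 Gbp members matched each other at 17 to 21 positions.

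Each library held between 21068322 and 26599809 counted reads, and 15766 genes had enough counts to be tested. Zfp276 itself had normalized counts of 1648 and 2230 in ctrl and of 489.5 and 502.6 in Zfp276cko cells (log2 fold change −1.97, SE 0.18), and a count per gene includes reads from exons that remain after recombination. The ctrl libraries differed more from each other than the Zfp276cko libraries did: a gap of 2-fold or more separated the ctrl pair for 15.3% of tested genes and the Zfp276cko pair for 1.17%. Normalized counts are counts scaled by TMM factors to a common library size. Oligodendroglial markers, 11 genes, summed to 14760 and 19570 CPM (counts scaled to library size) in ctrl and to 10140 and 10280 in Zfp276cko cells. Of these, 9 lay below ctrl in both Zfp276cko libraries without overlap, as did 23.7% of all tested genes. All 16 microglial markers had counts in every library, with sums of 3264 and 2308 in ctrl and of 2520 and 2592 in Zfp276cko cells. Without overlap, 5 of them lay above ctrl, among them Cx3cr1, Cd68 and Ptprc, and 1 below (Fcrls). DESeq2 called Ptprc (log2 fold change 0.76 in the edgeR fit) and Cd68 (0.99) higher and Fcrls (−1.22) lower, where over all genes it called 2.92% higher and 2.21% lower, and edgeR called none. Ptprc and Cd68 thus moved in the direction of the members and Fcrls in the other. The part of these moves in the counts of the members was not tested. Markers of endothelial, fibroblast and mural cells summed to 247 in ctrl replicate 1 and to between 11.3 and 16.5 in the other libraries. Of 8 lymphocyte markers, 7 had at most 3 counts in every library. The cultures thus held RNA of more cell types than OGCs, and these bulk libraries cannot tell a change in the number of cells of a type from a change in RNA per cell.

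For all 10 members, both Zfp276cko libraries exceeded both ctrl libraries, with no overlap of the genotypes. Such an upward separation was found for 26.8% of all tested genes. The median fitted log2 fold change of the members was 3.17, against −0.00 over all tested genes. Tgtp1 passed the filter on low counts only through the Zfp276cko libraries, and without it the median was 3.15. With edgeR's quasi-likelihood test and adjustment over all 15766 genes, none of the 10 members passed an adjusted p of 0.05, and neither did any other gene (0% called). The adjusted p values of the members lay between 0.0893 for Gbp6 and 0.345 for Gbp5. Without adjustment, 9 of the 10 had a p of at most 0.05, and 8 of these also passed the thresholds on fold change (0.6 on the log2 scale) and mean count (20), which 5.11% of tested genes did in the upward direction. DESeq2, used as an alternative, called 8 of the 10 members higher, against 2.92% of the 15289 genes for which it gave an adjusted p. The members it did not call were Gbp5, with an adjusted p of 0.0847 by DESeq2, and Tgtp1, which had too low a mean count. For a single gene, 2 libraries against 2 cannot give a two-sided exact permutation p below 0.333.

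**Figure D1:**
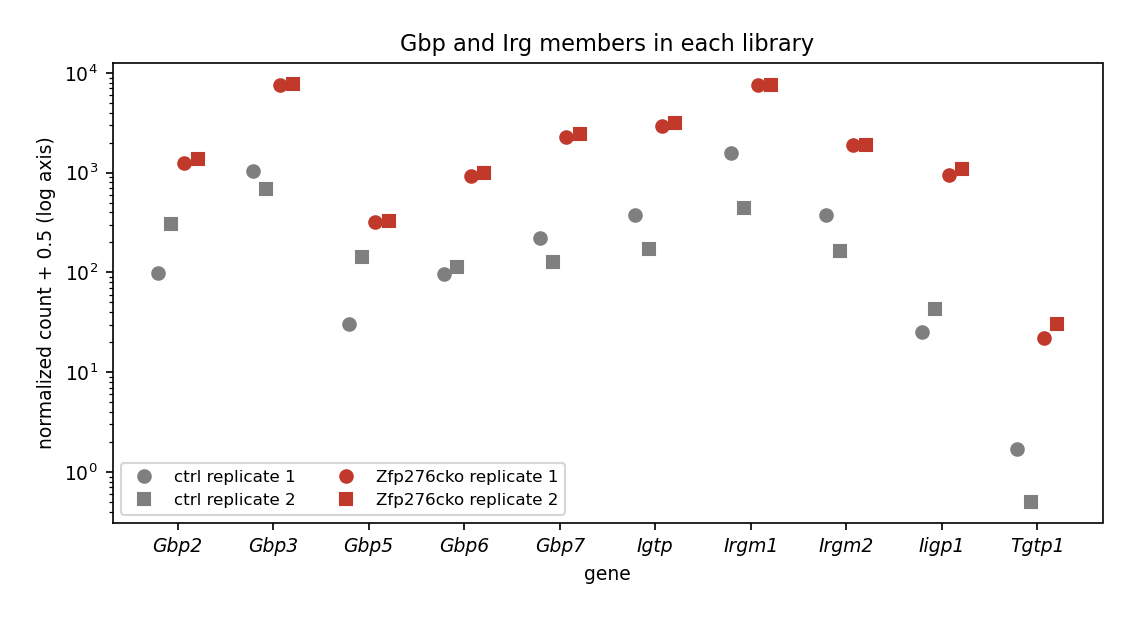
Normalized counts with 0.5 added (y axis, log scale) of the 10 members (x axis), with 1 point per library: ctrl in grey, Zfp276cko in red, circles for replicate 1 and squares for replicate 2. Both red points lie above both grey points for every gene, from 2.26 times the higher ctrl value for Gbp5 to 22.2 times for Iigp1, apart from Tgtp1, whose ctrl counts were 1 and 0.

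Among the Gbp members, Gbp3 had the highest counts. The ctrl libraries had normalized counts of 1042 and 681.9, and the Zfp276cko libraries had 7492 and 7767. The ctrl mean of 862.2 ± 254.9 (SD, n = 2) stood against a Zfp276cko mean of 7629 ± 194.1 (SD, n = 2), which is 8.85-fold higher, with a log2 fold change of 3.15 (SE 0.244, adjusted p = 0.0962 by edgeR). The lower Zfp276cko library was 7.19 times the higher ctrl library. Gbp7, a guanylate-binding protein linked to killing of bacteria and parasites in phagocytes, had normalized counts of 223.2 and 126.0 in ctrl and of 2271 and 2454 in Zfp276cko cells. The difference of 13.5-fold between the means (log2 3.76, SE 0.308, adjusted p = 0.0962 by edgeR) was the largest of the 5 Gbp members in this fit. Gbp6 had values of 94.98 and 113.7 in ctrl and of 925.7 and 987.2 in Zfp276cko cells. It was the member with the closest ctrl libraries and with the smallest standard error (log2 fold change 3.20, SE 0.164, adjusted p = 0.0893 by edgeR).

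Gbp2 and Gbp5 differed from these 3 by their spread within ctrl. Gbp2, which is among the Gbp proteins that attach to vacuoles of parasites and to bacteria, had normalized counts of 97.36 and 307.2 in ctrl and of 1261 and 1363 in Zfp276cko cells. Both Zfp276cko libraries were above both ctrl libraries, but the gap within ctrl gave a standard error of 0.575 on a log2 fold change of 2.69 (adjusted p = 0.181 by edgeR). Leaving out ctrl replicate 1 brought Gbp2 to 2.095, and leaving out ctrl replicate 2 brought it to 3.74. Gbp5, a promoter of inflammasome assembly, had values of 29.68 and 141.8 in ctrl and of 320.3 and 323.9 in Zfp276cko cells. The fitted log2 difference of 1.91 (SE 0.748, adjusted p = 0.345 by edgeR) was the smallest of the 10. This value depended on the ctrl library. It came to 1.18 when ctrl replicate 1 was left out and to 3.42 when ctrl replicate 2 was left out.

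Among the regulatory Irg members, Irgm1, which has roles in autophagy and in keeping effector GTPases off the cell's own membranes, had normalized counts of 1579 and 444.5 in ctrl and of 7640 and 7607 in Zfp276cko cells. The Zfp276cko libraries were nearly equal (SD 23.2) and the ctrl libraries were not (SD 802.3), and the log2 fold change was 2.91 (SE 0.651, adjusted p = 0.186 by edgeR). Leaving out ctrl replicate 1 gave 4.10, and leaving out ctrl replicate 2 gave 2.26. Igtp, also called Irgm3, had values of 377.6 and 171.0 in ctrl and of 2945 and 3130 in Zfp276cko cells (log2 fold change 3.47, SE 0.414, adjusted p = 0.117 by edgeR). Irgm2 had values of 375.2 and 165.4 in ctrl and of 1910 and 1915 in Zfp276cko cells (log2 fold change 2.82, SE 0.421, adjusted p = 0.128 by edgeR). Igtp and Irgm2 had almost the same ctrl counts in each replicate, but counts are not scaled by exon length (2022 and 3690 nt). Per length (TPM, defined below), Igtp was the higher gene in each library. Ctrl replicates 1 and 2 had 26.4 and 13.5 TPM of Igtp against 14.4 and 7.17 TPM of Irgm2, so the ctrl ranges overlapped. Zfp276cko cells had 244 and 252.1 TPM of Igtp against 86.7 and 84.5 TPM of Irgm2. Without ctrl replicate 1 and without ctrl replicate 2, respectively, the log2 fold change was 4.15 and 2.99 for Igtp and 3.53 and 2.34 for Irgm2.

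Of the effector Irg members, Iigp1 (Irga6) had the largest difference among members with more than 3 counts in ctrl. Ctrl libraries had normalized counts of 24.93 and 42.76 and Zfp276cko libraries of 947.4 and 1077, which is 29.9-fold higher between the means (log2 4.89, SE 0.307, adjusted p = 0.0962 by edgeR). Only 10 of the 15766 tested genes had a larger fitted log2 fold change, which put Iigp1 at rank 11, and all 10 members were within the first 270. Tgtp1 (Irgb6) had raw counts of 1 and 0 in ctrl and of 24 and 35 in Zfp276cko cells. Both ctrl libraries were at or under a floor of 3 counts per library, and against that floor Tgtp1 was at least 7.46-fold higher in Zfp276cko cells. The floor covers counting error only. The rank of Tgtp1 by its fitted value was 5, but this value depends on the prior count, had the largest standard error of the members (0.825) and ran from 4.31 to 7.78 when 1 library was left out.

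**Figure D2:**
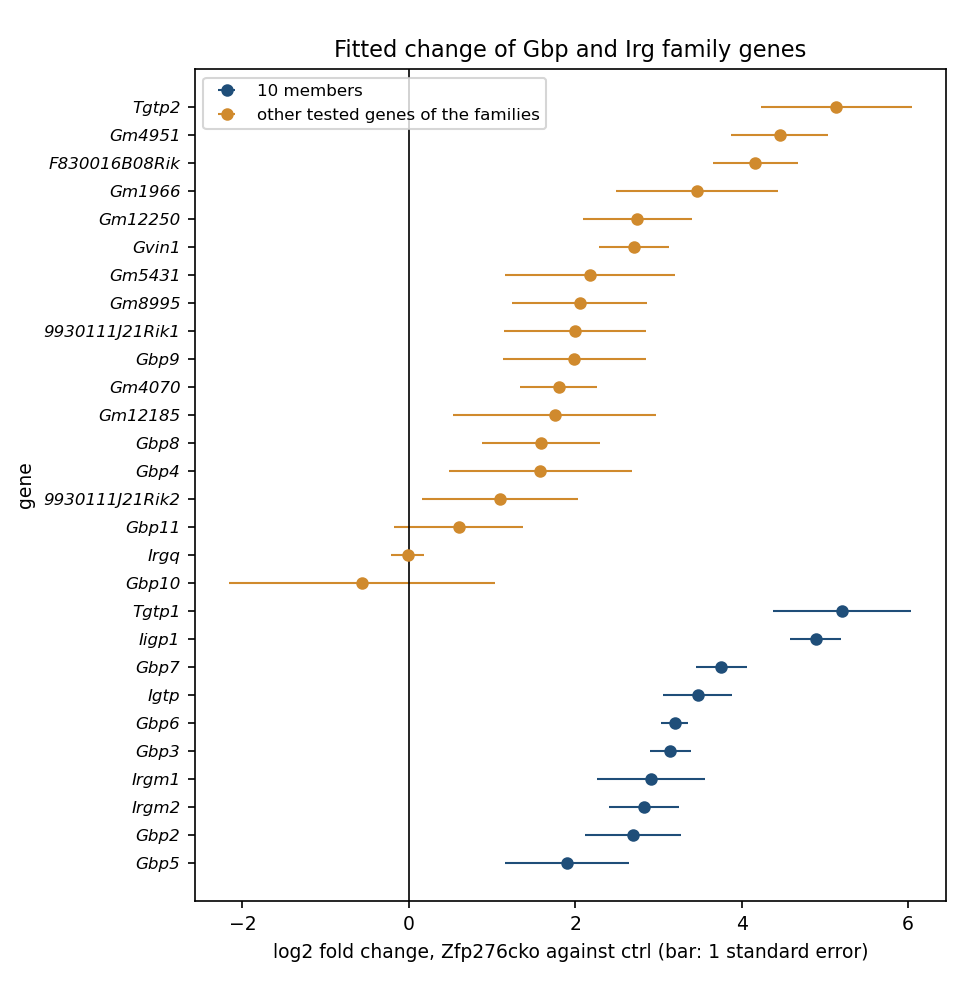
Fitted log2 fold change of Zfp276cko against ctrl (x axis, bars of 1 standard error) for the 10 members (blue) and 18 other tested genes of the families (orange), with 1 gene per row. The members lie between 1.91 and 5.21 and the other genes between −0.56 and 5.14.

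Tgtp1 and Gbp6 share most of their transcript sequence with another annotated gene. Of the 101-base stretches in the Tgtp1 transcript, which is the read length, 83.1% also occur in another gene, most of them in Tgtp2, so that reads from them would not be counted for either gene if only uniquely mapped reads were counted. Tgtp2 had raw counts of 13 and 1 in ctrl and of 333 and 330 in Zfp276cko cells (log2 fold change 5.14, SE 0.905, adjusted p = 0.152 by edgeR). In the Gbp6 transcript, 82.8% of the stretches also belong to the gene model Gm43302, which overlaps Gbp6 and Gbp10 and had 0 counts in every library. In Gbp7 the share was 10.2%, mostly with Gm43802, which likewise had 0 counts. It was 5.57% in Igtp, 2.42% in Irgm2 and 0.891% in Gbp3. No stretch of Gbp2, Gbp5, Irgm1 or Iigp1 was shared with another gene.

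Levels were compared between genes in TPM, which scales counts by exon length and library size. The length was that of all annotated exons of a gene merged, which can exceed its longest coding transcript. It was 5810 against 2259 nt for Irgm1, 3265 against 2682 nt for Gbp3 and 2022 nt in both for Igtp. The ranks between genes and the shares hold for the merged length, and other lengths were not tried. The 10 members summed to 138.9 and 97.1 TPM in ctrl and to 1150 and 1163 TPM in Zfp276cko cells. By this measure Gbp3 had the highest mean level in both genotypes, with 39.3 TPM in ctrl and 385.9 TPM in Zfp276cko cells. Igtp (19.96 and 248 TPM) and Irgm1 (25.3 and 216.7 TPM) exchanged the ranks below it. In Zfp276cko cells Gbp2 (86.1 TPM) and Irgm2 (85.6 TPM) came next and did not differ beyond their spread: Gbp2 had 83.98 and 88.2 TPM in the 2 libraries and Irgm2 had 86.7 and 84.5 TPM. Gbp7 followed with 69.5 TPM. Iigp1 (28.7 TPM) and Gbp6 (26.5 TPM) were also close, with 27.3 and 30.1 TPM for Iigp1 and 26.04 and 27.0 TPM for Gbp6. Gbp5 had 8.02 TPM and Tgtp1 had 1.33 TPM. The levels of Gbp6 and Tgtp1 would be too low if reads shared with another gene were not counted. In ctrl the order was not resolved for most neighbours, Gbp3 and Irgm1 included, since the replicates overlapped. Gbp3 had 45.1 and 33.4 TPM and Irgm1 had 38.4 and 12.2 TPM. Igtp had 26.4 and 13.5 TPM, Gbp2 5.47 and 19.5 TPM and Irgm2 14.4 and 7.17 TPM. Iigp1 was the ninth of the 10 in ctrl with 0.89 TPM and the seventh in Zfp276cko cells.

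The 5 Gbp members made up 49.6% and 50% of the summed TPM in the 2 Zfp276cko libraries, and 42.5% and 64.9% in the 2 ctrl libraries. The share of Gbp3 within the Gbp sum was 67.4% and 66.6% in Zfp276cko cells and 76.4% and 53.0% in ctrl cells. Irgm1 made up 38.0% and 36.7% of the Irg sum in Zfp276cko cells and 48.1% and 35.9% in ctrl cells. The makeup was therefore alike between the Zfp276cko libraries and differed between the ctrl libraries, and for each of these 3 shares the Zfp276cko values lay between the ctrl values.

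**Figure D3:**
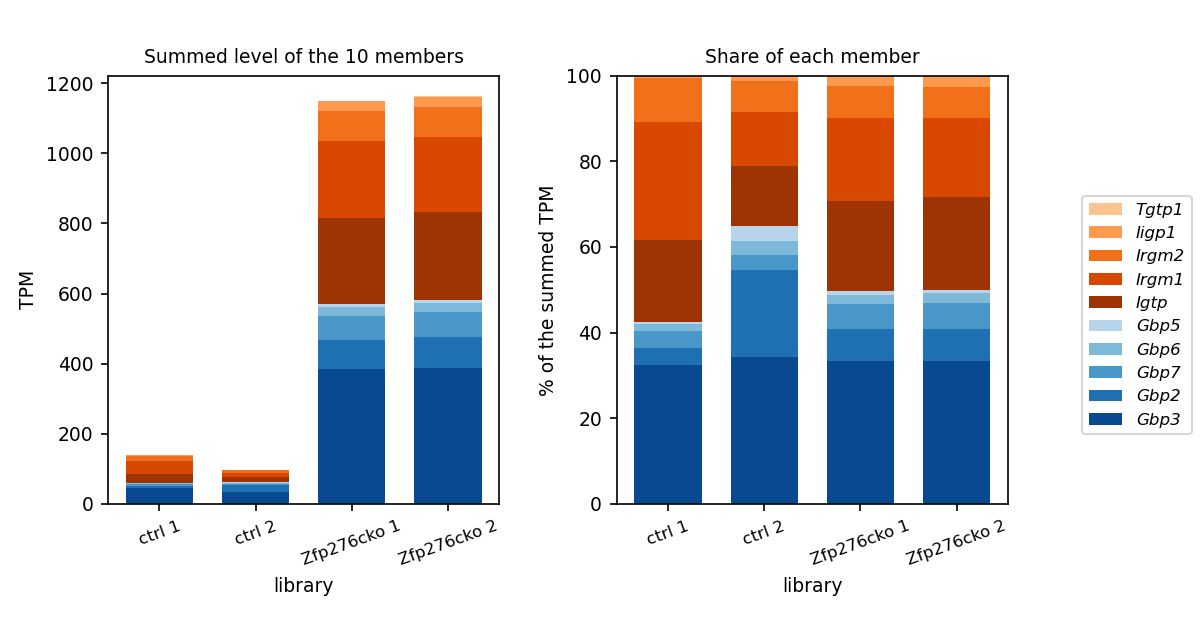
Level of the 10 members in each library as stacked TPM (left, y axis from 0) and as a percentage of their summed TPM (right), with Gbp members in blue and Irg members in orange. The sums are 138.9 and 97.1 in ctrl against 1150 and 1163 in Zfp276cko cells, and the Gbp share is 42.5% and 64.9% in ctrl against 49.6% and 50% in Zfp276cko cells.

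The spread within ctrl was not in 1 direction across the members. Ctrl replicate 1 was higher for 6 of them (Gbp3, Gbp7, Igtp, Irgm1, Irgm2 and Tgtp1), and ctrl replicate 2 was higher for 4 (Gbp2, Gbp5, Gbp6 and Iigp1). The log2 ratio of ctrl replicate 1 over ctrl replicate 2 ran from −2.24 for Gbp5 to 1.83 for Irgm1, and its median absolute value was 1.16, against 0.32 over all tested genes. Between the Zfp276cko replicates the median absolute log2 ratio of the members was 0.09, as it was over all tested genes, and the largest was 0.46 for Tgtp1. Of the 16 microglial markers, 6 were at least 2-fold higher in ctrl replicate 1 (P2ry12, Csf1r, Itgam, Trem2, C1qa and C1qc) and 1 was so in ctrl replicate 2 (Aif1). Csf1r, the receptor for a microglial survival factor, had normalized counts of 11410 and 1850 in ctrl, and Aif1, which codes for Iba1, had 1248 and 3204. In Zfp276cko cells Csf1r had 3085 and 3016 and Aif1 had 2770 and 2817. The part of these cells in the counts of the members was not tested.

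Without ctrl replicate 1 the median log2 fold change of the members was 3.82, and without ctrl replicate 2 it was 3.35. In each of these fits 9 of the 10 members passed the call with edgeR, Tgtp1 being the exception for its mean count, but 2641 and 3078 genes did so in all. Only the spread between the Zfp276cko libraries entered these fits, and the lone ctrl library was assumed to vary as they do.

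**Figure D4:**
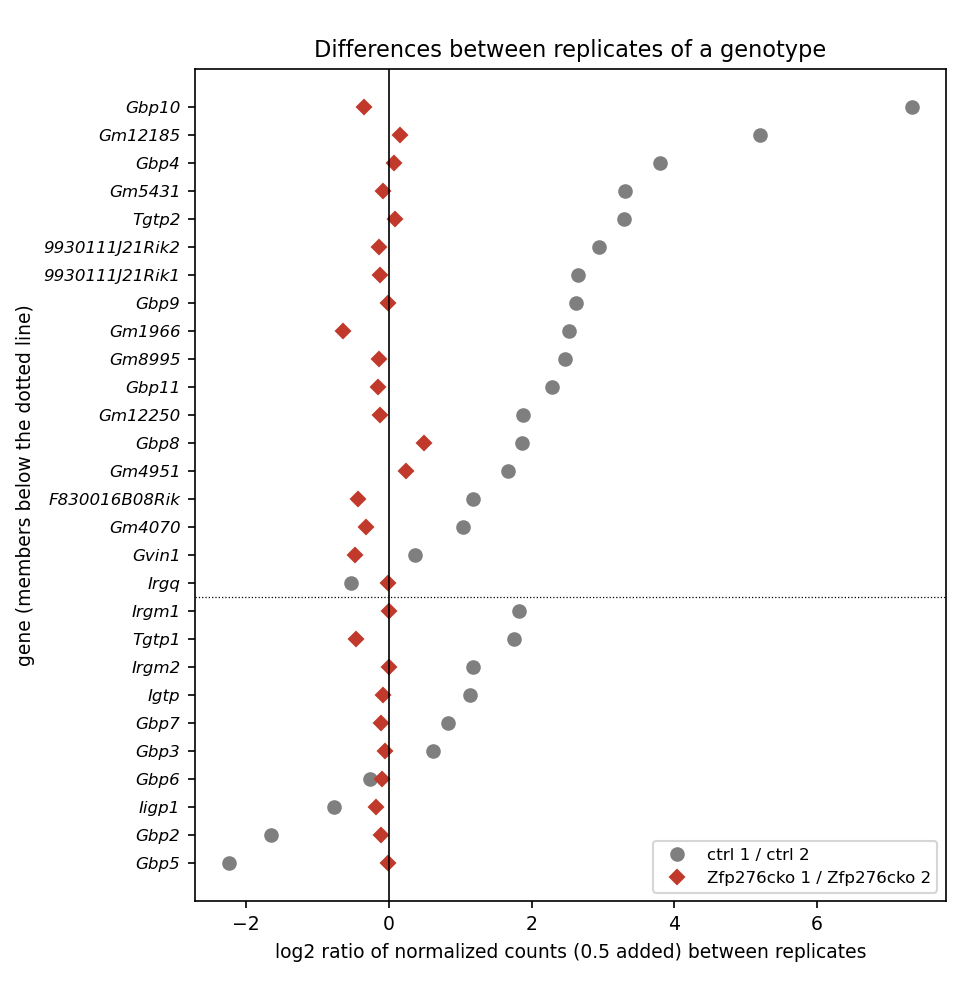
Log2 ratio of normalized counts between replicate 1 and replicate 2 (x axis, 0.5 added) for the 10 members and 18 other tested genes of the families, with ctrl as grey circles and Zfp276cko as red diamonds. Among members the ctrl ratio runs from −2.24 to 1.83, while in the other genes it is above 0 for 17 of 18, and every Zfp276cko ratio lies within 0.64 of 0.

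Another 21 genes of these families, among them 4 of the related giant interferon-inducible GTPases around Gvin1, were in the files, and 18 of them were tested. Of these, 15 lay above ctrl in both Zfp276cko libraries (26.8% of all tested genes did), 3 overlapped and 0 lay below. Their median log2 fold change was 2.00, and none was called by edgeR. Without adjustment 5 passed its thresholds upward, as 5.11% of all tested genes did. DESeq2 called 4 higher, against 2.92% of the genes for which it gave an adjusted p. These 4 were Tgtp2, Gm4951, F830016B08Rik and Gm12250, all of the Irg family. Of the 18 genes, 10 passed the filter on low counts only through the Zfp276cko libraries, and 3 of the 4 calls (all but Gm12250) were among them. The median over the other 8 was 1.896. Counts over all 18 are therefore given as a description only. Gm4951 had normalized counts of 19.0 and 5.63 in ctrl and of 294.1 and 249.2 in Zfp276cko cells (log2 fold change 4.46, SE 0.586, adjusted p = 0.121 by edgeR). Irgq, a distant relative, had 1865 and 2688 in ctrl against 2241 and 2269 in Zfp276cko cells, with a log2 fold change of −0.01 (SE 0.198).

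Of the Gbp genes outside the 10, Gbp9 had normalized counts of 245.8 and 39.4 in ctrl and of 562.8 and 568.8 in Zfp276cko cells (log2 fold change 1.99, SE 0.856, adjusted p = 0.372 by edgeR). Gbp4 had 53.4 and 3.38 in ctrl against 86.9 and 82.5 in Zfp276cko cells. Gbp11 overlapped, with 84.3 and 16.9 in ctrl against 72.4 and 80.8 in Zfp276cko cells. Gbp10 and Gbp2b had reads in ctrl replicate 1 and none in ctrl replicate 2. Gbp10 had raw counts of 67 and 0 in ctrl and of 26 and 35 in Zfp276cko cells. Gbp2b had 37 and 0 in ctrl against 1 and 1 in Zfp276cko cells. The imbalance within ctrl was common to these genes: ctrl replicate 1 was higher than ctrl replicate 2 for 17 of the 18 and at least 2-fold higher for 16, with a median log2 ratio of 2.495, whereas for the 10 members that median was 0.72.

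The promoters of the members were searched for both kinds of element. RefSeq promoter windows (build GRCm38.p6, 250 bases before to 50 bases after a start) were matched by symbol for 8 of the 10 members, in 9 windows, and Gbp6 and Iigp1 had no entry. The ISRE core was searched as GAAA, any 2 bases and GAAA, and the GAS as TTCNNNGAA, each on both strands. All 8 members had an ISRE core, which occurs in 3.44% of the 32851 promoter windows in the table. A GAS was found in 5 of the 8 (Gbp5, Gbp7, Tgtp1, Igtp and Irgm2), against 8.30% of all windows. Counting only the bases before the start left both member counts at 8 and 5. A match of letters does not show that a factor binds there.

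In 3 Irg members the elements lay side by side. The GAS began 11 bases before the ISRE core. The core began 34 bases before the start in Igtp, 64 in Irgm2 and 77 in Tgtp1. These stretches are shown with both elements in capitals because their letters and spacing nearly repeat between a regulator pair and an effector. They lie at chr11:58199505-58199537 (plus strand) for Igtp, at chr11:58214896-58214928 (plus strand) for Irgm2 and at chr11:48992308-48992340 (minus strand) for Tgtp1, outside annotated exons.
Igtp: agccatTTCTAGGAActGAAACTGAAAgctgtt
Irgm2: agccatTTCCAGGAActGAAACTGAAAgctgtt
Tgtp1: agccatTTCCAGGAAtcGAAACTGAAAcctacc
This spacing, chosen after these sequences were seen, was searched with the GAS before the core in the direction of the gene. It was found in 5 of the 32851 windows (0.0152%), and the reverse order was not searched. The 5 genes were Igtp, Irgm2, Tgtp1, Tgtp2 and Gm12185, which all belong to the Irg family on chromosome 11 and are related copies, so they are not independent occurrences.

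The ISRE core of the Gbp members stood on the other strand, where it reads TTTC, any 2 bases and TTTC. It is shown in capitals with 10 bases on each side for 3 members, at chr3:142559989-142560018 for Gbp3, at chr3:142530273-142530302 for Gbp7 and at chr3:142496759-142496788 for Gbp5 (plus strand of the genome, outside annotated exons).
Gbp3: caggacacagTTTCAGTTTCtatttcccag
Gbp7: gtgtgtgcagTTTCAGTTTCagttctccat
Gbp5: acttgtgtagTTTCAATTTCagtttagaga
The core began 45 bases before the start in Gbp3, 53 in Gbp7, 59 in Gbp2 and 165 in Gbp5. Gbp3 and Irgm1 each had a pair of overlapping cores and no GAS. In Gbp7 the nearer GAS began 34 bases before the core, and in Gbp5 the core lay between 2 GAS matches.

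**Figure D5:**
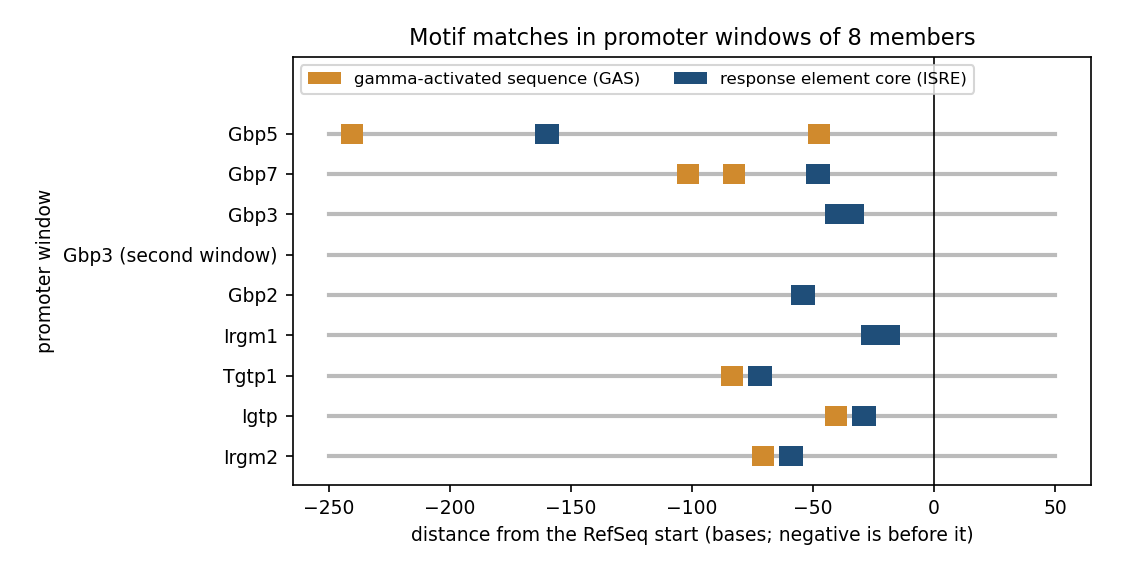
Positions of ISRE cores (blue) and GAS matches (orange) in 9 promoter windows of 8 members (rows), in bases from the RefSeq start (x axis, negative before it). An ISRE core lies between 24 and 165 bases before the start in the first window of every gene shown, and the second Gbp3 window has no match.

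Genes that act upstream of the members were read from lists of the interferon pathway. Ifng had 1 count over the 4 libraries together. Ifnb1, the type I interferon beta, had raw counts of 1 and 0 in ctrl and of 28 and 26 in Zfp276cko cells, at least 6.87-fold higher against a floor of 3 counts per library. Of 13 ligands and receptors, 6 were tested, and 2 were higher in both Zfp276cko libraries (26.8% of all tested genes were). None was called by edgeR or DESeq2 in either direction. Ifnb1 was among these 2 and passed the filter on low counts only through the Zfp276cko libraries. Its adjusted p was 0.0419 by DESeq2, and it was not called because its mean count was too low. The receptor subunits had small differences, with log2 fold changes of −0.18 for Ifngr1, 0.19 for Ifngr2, −0.17 for Ifnar1 and −0.23 for Ifnar2.

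All 14 genes of the Jak, Stat and Irf list were tested. Without overlap, 9 lay above ctrl and 1 below (26.8% and 23.7% of all tested genes did), and none was called by edgeR. Without adjustment 7 passed its thresholds, all upward, as 5.11% of all tested genes did. DESeq2 called 5 higher, among them Stat2, Irf1, Irf9 and Nlrc5, and 0 lower. Over all genes it called 2.92% higher and 2.21% lower. Irf9, a DNA-binding partner of Stat2, had normalized counts of 1390 and 747.2 in ctrl against 2982 and 3059 in Zfp276cko cells (log2 fold change 1.499, SE 0.32, adjusted p = 0.181 by edgeR). Irf1, an activator of Gbp genes, had 472.5 and 345.5 in ctrl against 881.3 and 754.3 in Zfp276cko cells (log2 fold change 1.00, SE 0.208, adjusted p = 0.178 by edgeR). Irf8, mainly a factor of myeloid cells, had 898.8 and 523.3 in ctrl against 1245 and 1141 in Zfp276cko cells (log2 fold change 0.75, SE 0.286, adjusted p = 0.335 by edgeR). The fitted values of Irf9, Irf1 and Irf8 lay below those of all 10 members.

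Among 9 feedback inhibitors of the pathway, 5 were higher and 2 lower in both Zfp276cko libraries, where 26.8% and 23.7% of all tested genes were. DESeq2 called Socs1, Socs3 and Usp18 higher and Ptpn11 lower, where over all genes it called 2.92% higher and 2.21% lower, and edgeR called none. Usp18, which dampens signalling at the type I interferon receptor, had normalized counts of 1044 and 243.1 in ctrl and of 9317 and 8628 in Zfp276cko cells (log2 fold change 3.803, SE 0.76, adjusted p = 0.172 by edgeR). Socs3 had 483.2 and 386.0 in ctrl against 1193 and 1204 in Zfp276cko cells (log2 fold change 1.46, SE 0.152, adjusted p = 0.103 by edgeR). Ptpn11, the phosphatase Shp2, had 12040 and 11870 in ctrl against 7341 and 7093 in Zfp276cko cells (log2 fold change −0.73, SE 0.1, adjusted p = 0.123 by edgeR).

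The loading of Gbp and Irg proteins onto vacuoles uses the Atg8 conjugation machinery and ubiquitin ligases. Of 15 tested genes of that list, 5 lay above and 4 below ctrl in both Zfp276cko libraries (26.8% and 23.7% of all tested genes did). The median was 0.03 on the log2 scale, and DESeq2 called 1 of the 15 higher, where over all genes it called 2.92%. That gene was Trim21, an interferon-inducible ubiquitin ligase, with 353.8 and 135.0 in ctrl against 1267 and 1205 in Zfp276cko cells (log2 fold change 2.34, SE 0.489, adjusted p = 0.179 by edgeR). The conjugation genes Atg3, Atg5, Atg7, Atg12 and Atg16l1 had log2 fold changes between −0.21 and 0.24. Of 9 genes of caspase-11 signalling and the inflammasome, 5 were higher and 1 lower in both Zfp276cko libraries (26.8% and 23.7% of all tested genes were), none was called by edgeR or DESeq2, and the median was 0.45. Casp4, the mouse gene for caspase-11, had 212.5 and 145.2 in ctrl against 331.2 and 377.2 in Zfp276cko cells (log2 fold change 0.99, SE 0.254, adjusted p = 0.215 by edgeR). Il1b, which is made by microglia, had 896.4 and 59.6 in ctrl against 92.3 and 112.5 in Zfp276cko cells, so its genotypes overlapped.

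The members sit in 5 clusters of the genome in GENCODE M21 (GRCm38/mm10), each on its own stretch. Gbp5, Gbp7, Gbp3 and Gbp2 lie in this order on chromosome 3 within 144 kb, from 142493978 to 142638008. Gbp6 lies at 105270702 to 105293698 on chromosome 5, in a cluster with 5 other Gbp genes. Irgm1 (48861968 to 48871683) and Tgtp1 (48985327 to 48994172) share a cluster on chromosome 11, and Igtp (58199556 to 58207591) and Irgm2 (58199618 to 58222782) overlap in a cluster of 35 kb farther along the same chromosome. Iigp1 lies on chromosome 18 from 60376027 to 60392634. All 10 are protein-coding genes.

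The nearest tested protein-coding genes outside the family lists, 20 in all, were taken on both sides of each cluster. Without overlap, 6 lay above ctrl (26.8% of all tested genes did) and 1 below (23.7% did), and their median log2 fold change was 0.06. The highest was Ifi47, itself a GTPase of the Irg kind that the list did not hold, with 125.9 and 21.4 in ctrl against 342.0 and 364.3 in Zfp276cko cells (log2 fold change 2.26, SE 0.832, adjusted p = 0.319 by edgeR). Kyat3, an aminotransferase gene beside the Gbp cluster on chromosome 3, had 163.8 and 149.7 in ctrl against 323.9 and 338.5 in Zfp276cko cells (log2 fold change 1.08, SE 0.170, adjusted p = 0.134 by edgeR). The next gene on that side, Gtf2b, had a log2 fold change of 0.06. Mrpl22, which lies 8.2 kb before the cluster of Igtp and Irgm2, had 0.07. All neighbours other than Ifi47 and Kyat3 had log2 fold changes between −0.62 and 0.39.

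The tested genes outside the lists whose profile over the 4 libraries lay nearest to the median profile of the members were Trim30d, Prss50, Gm43197, Ifi205 and Cyp4f18. Nearness was the Euclidean distance of log2 normalized counts centred over the 4 libraries. Trim30d was nearest (distance 0.229), with normalized counts of 96.2 and 60.8 in ctrl and of 757.4 and 871.2 in Zfp276cko cells. The other 4 had distances up to 0.405, and Prss50 had only 4 and 3 raw counts in ctrl. Among the members, Gbp3 was nearest to the median profile (0.292) and Gbp5 farthest from it (2.27). With 4 libraries in 2 genotypes, nearness mostly states that a gene was higher in Zfp276cko cells by a similar amount and had a similar gap between the ctrl libraries.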

How the data were processed

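RNA-Seq libraries (stranded mRNA, 101-nt single reads) were made from 2 ctrl and 2 Zfp276cko preparations. Reads were mapped by the authors to mm10 using STAR (version 2.5.4a in the submitters' processing notes) and deposited raw counts for each gene symbol, as whole numbers. The paper names HTSeq for counting and the notes name featureCounts 1.5.1, and the strand setting is not given in the sources used here. Without it, reads of antisense genes cannot be told apart. The ctrl libraries held 21311469 and 21068322 counted reads, the Zfp276cko libraries 25265366 and 26599809.

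Genes were kept with filterByExpr of edgeR 4.0.16 (R 4.3.3), which left 15766 genes and 99.9% of counts, normalized with TMM and compared with the quasi-likelihood test of edgeR, adjusted by Benjamini-Hochberg. The standard error (SE) given is the one implied by that test: the size of the log2 fold change divided by the square root of its F statistic. Genes were called at an adjusted p up to 0.05 if the log2 fold change was 0.6 or more in size and the normalized counts averaged 20 or more. DESeq2 1.42.0 was an alternative, beside other filters, size factors, a replicate block and leaving out each library. TPM used the merged exon lengths of GENCODE M21, which cover 99.2% of counts. The test was checked on simulated data with the same spread in both genotypes. These libraries do not have an equal spread, so the check does not cover them in this respect. P values measure the spread between preparations pooled from mice.

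The members and lists were chosen with earlier results of these data known. Named genes are the members, the rest of the families, up to 6 genes per pathway list by mean count plus those that define the pathway or were called by DESeq2 (the last chosen after their values were seen), chromosomal neighbours and the 5 nearest profiles. Some genes that this rule covers are left out of the text.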

Additional observations from a re-analysis of the deposited data

How the results depend on the processing

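All 10 members were higher in both Zfp276cko libraries under every alternative run, except that the filter of at least 10 counts in every library removed Tgtp1 and left 9. The median log2 fold change of the members lay between 3.14 and 3.82 over these alternatives, and none reversed a direction. The number of calls did depend on the choice. Of the members, 2 (Gbp6 and Iigp1, each with an adjusted p of 0.0317 by edgeR) were called with no filter on low counts, 8 with DESeq2 and 8 with an unadjusted p, and leaving out 1 library gave between 0 and 9. Over all genes the counts were 8 with no filter, 785 with DESeq2 (447 higher and 338 lower), 1282 with an unadjusted p (806 higher and 476 lower), and between 0 and 3078 when 1 library was left out. The high counts came without ctrl replicate 1 (2641) or ctrl replicate 2 (3078), and 0 came without either Zfp276cko library. Leaving out a library leaves 1 in a genotype, which is assumed to vary like the other pair. With a replicate block the median was 3.19, adjusted p values by edgeR lay between 0.108 and 0.342 and 0 members were called. The replicate numbers showed no sign of pairing the libraries (correlation of deviations −0.01), which cannot exclude a pairing in a design this small. The block changed no call, but without it 0 genes were called, so no call could be lost. With 2 libraries per genotype and ctrl libraries far apart, the size of each difference is uncertain, most of all for Tgtp1, and then for Gbp5, Irgm1 and Gbp2.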
